A study of Arabidopsis thaliana with 2 samples.

Results

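Superoxide dismutases (SODs) turn superoxide into hydrogen peroxide and oxygen, and plants make them with copper and zinc, iron or manganese at the active site. The 7 genes described here include the Cu/Zn enzymes CSD1 (AT1G08830, cytosol), CSD2 (AT2G28190, plastid) and CSD3 (AT5G18100, peroxisome). They also include the copper chaperone CCS (AT1G12520), which loads copper into the Cu/Zn enzymes. The rest are the iron enzymes FSD1 (AT4G25100) and, in the plastid, FSD2 (AT5G51100) and FSD3 (AT5G23310). These 7 genes were taken by gene identifier from the 20612 genes of the table, and all 7 were listed. CSD1, CSD2 and CCS are established targets of the microRNA miR398 and form one group of 3, and the remaining 4 genes form the other.

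In Arabidopsis leaves, miR398 accumulates when copper is scarce and lowers CSD1, CSD2 and CCS transcripts, while the iron enzyme FSD1 is switched on, both under the copper-sensing transcription factor SPL7. Plants thereby replace copper SODs with an iron SOD and spare copper for plastocyanin, the copper protein of photosynthetic electron transport. DICER-LIKE1 (DCL1) is the enzyme that cuts plant microRNAs, miR398 included, out of their precursors.

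Stranded mRNA-Seq of poly(A) RNA was done on Arabidopsis thaliana embryos at the early globular stage, when they are balls of few cells. The 2 libraries are 1 of dcl1-5 mutant embryos and 1 of wild-type Col-0 embryos, each made from 30 embryos that were dissected by hand, pooled, and their RNA linearly amplified in 2 rounds. Both came from plants grown with 16 hours of light and 8 hours of dark, and the labels name no other allele or agent. Since each genotype has 1 library, the differences lack a replicate check and carry no p-values. In such pooled tissue, fewer cells of a type and less RNA per cell cannot be told apart.

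The sequences below show what miR398 could pair with, since the first group was defined by known targeting by miR398. Each is written 5′ to 3′ from the RefSeq copy of the TAIR10.1 assembly. In the mature miRNAs, the capitals mark the seed (bases 2 to 8), which all 3 copies share. The MIR398b and MIR398c copies are identical and differ from MIR398a in the last base only. The first line lies at chr2:1041012-1041032 and the second at chr5:4691107-4691127, both on the plus strand.
miR398a: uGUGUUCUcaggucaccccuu
miR398b and miR398c: uGUGUUCUcaggucaccccug

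In the transcript sites, capitals mark the bases that form a Watson-Crick pair with the better pairing miR398 copy. The fourth, COX5B-1 (AT3G15640), encodes a subunit of mitochondrial cytochrome c oxidase and is a miR398 target outside the SOD system. It is shown because its pairing is the closest of the 4.
CSD1: AAGGGGUuuCCUGAGAuCACA
CSD2: ugcGGGUGACCUGgGAAACA
CCS: AuuGGGaGACCUGgGAACACu
COX5B-1: AAGGuGUGACCUGAGAAuCACA

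The CSD1 site lies in the 5′ UTR across the junction of exons 1 and 2, at chr1:2827177-2827685 with the intron included. The CSD2 site is coding sequence in exon 4 of 8 (chr2:12015572-12015591, plus strand). The CCS site is coding sequence in exon 5 of 5 (chr1:4267521-4267541, minus strand), and the COX5B-1 site is in the 5′ UTR in exon 1 (chr3:5299204-5299225, plus strand). Each is the best site of its transcript when a mismatch costs 1, a G:U pair 0.5 and a single unpaired base 1.5. Of the 21 bases of miR398, 18 paired in CSD1, 16 in CSD2 with 1 miRNA base left out, 16 in CCS and 20 in COX5B-1 with 1 extra transcript base. The best site of CSD3 had 12 pairs, that of FSD1 15, that of FSD2 14 and that of FSD3 14. Of the 7 seed bases, COX5B-1 paired with 7, CSD1, CCS and FSD1 with 6, CSD2 and FSD2 with 5, and CSD3 and FSD3 with 4.

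How rare such pairing is differed from member to member. Each of 31340 genes with an annotated mRNA was searched in its longest transcript. Of these, 4 had a site at least as good as that of CSD1, 28 as that of CSD2 and 152 as that of CCS. These counts include the gene itself. Among the 4 was AT5G14550, whose annotated transcript runs antisense across MIR398B. A site as good as that of FSD1 was found in 5.80% of genes and one as good as that of CSD3 in 63.3%. Among the 62 measured genes with a site at least as good as that of CCS, members included, 26 were at least 2-fold higher in dcl1-5 and 1 was at least 2-fold lower, or 41.9% and 1.61%, beside 33.8% and 4.58% of all tested genes. A match is a description of letters and does not show that a transcript is cut.

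The deposited values are RPM, the reads of a gene scaled to 1000000 genome-matching reads of its library. There were 4513588 such reads in dcl1-5 and 5611643 in wild type, and 1 read equals 0.222 RPM in dcl1-5 and 0.178 RPM in wild type. Brackets hold 95% exact intervals, which describe counting error only, because reads of amplified RNA are not independent molecules. DCL1 (AT1G01040) itself had 3 reads in dcl1-5 and 26 in wild type, or 0.665 RPM and 4.63 RPM. The comparison took in the 10240 genes whose 2 values averaged 5 RPM or more. On the log2(RPM + 1) scale, which understates changes of low genes, dcl1-5 was 2-fold or more higher in 33.8% of them (3464 genes) and 2-fold or more lower in 4.58% (469 genes), 38.4% in either direction. Scalings that centre the bulk of genes gave fewer higher and more lower ones: median-of-ratios left 1984 higher and 1091 lower genes, and TMM (trimmed mean of M-values) left 1541 (15.0%) and 1486 (14.5%). The log2 ratio shared by genes in general, taken as the median over the tested set, was 0.63 as deposited, 0.18 by median-of-ratios and 0.00 by TMM.

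The copper SODs were higher in the dcl1-5 library and the abundant iron SOD was lower. CSD1 had 560.8 RPM [539 to 583] in dcl1-5, against 164.5 RPM [154 to 175] in wild type, 3.41-fold higher [3.16 to 3.68]. CSD2 had 450.4 RPM [431 to 470.4] in dcl1-5, against 203 RPM [191 to 215] in wild type, 2.22-fold higher [2.06 to 2.39]. CCS was scarce, with 89 reads in dcl1-5, 19.7 RPM [15.8 to 24.3], against 15 reads in wild type, 2.67 RPM [1.50 to 4.41], 7.38-fold higher [4.24 to 13.7]. In all 3 of these genes the intervals of the 2 libraries lay apart, and the chaperone differed by the largest factor of the 3.

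FSD1 went the other way. Its 1070 reads in dcl1-5, 237 RPM [223 to 252], stood against 3436 reads in wild type, 612 RPM [592 to 633], which made it 2.58-fold lower [2.41 to 2.77]. In wild type it was the member with the most reads. CSD3, the Cu/Zn enzyme with no known miR398 site, had 49 reads in dcl1-5, 10.9 RPM [8.03 to 14.4], against 26 reads in wild type, 4.63 RPM [3.03 to 6.79], 2.34-fold higher [1.43 to 3.93]. The scarce plastid enzymes gave little. FSD3 had 50 reads in dcl1-5, 11.1 RPM [8.22 to 14.6], and 53 reads in wild type, 9.44 RPM [7.07 to 12.4], a ratio of 1.17 [0.781 to 1.76] that includes equality. FSD2 had 2 reads in dcl1-5 and 0 in wild type, at or under the floor of 3 reads in both (0.665 RPM and 0.535 RPM), so no difference could be detected at this depth.

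**Figure D1:**
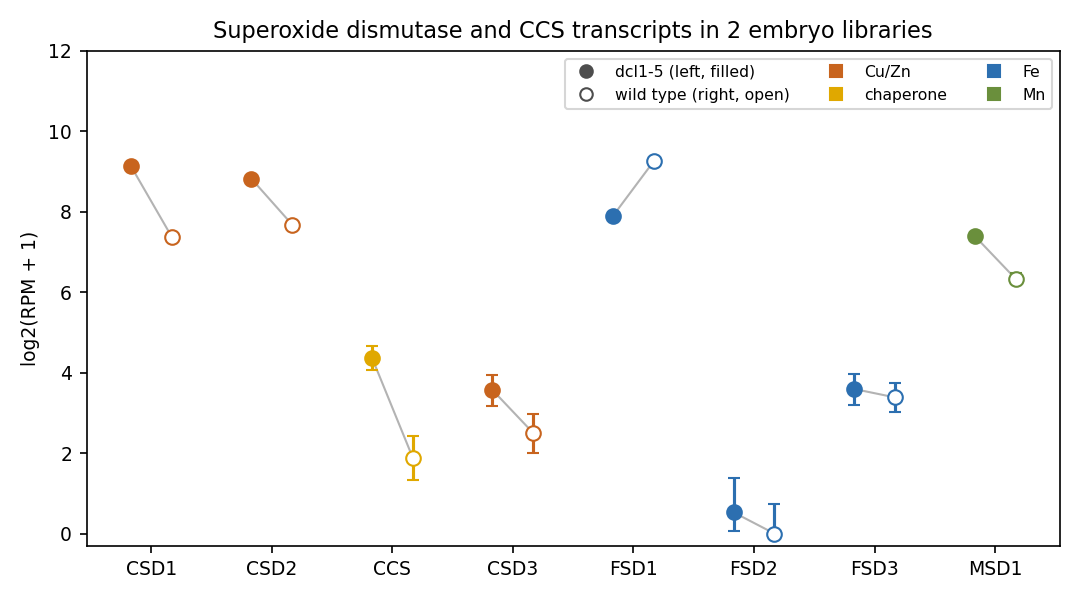
Level of each gene as log2(RPM + 1), dcl1-5 on the left (filled) and wild type on the right (open), with exact 95% counting intervals. CSD1, CSD2, CSD3, CCS and MSD1 sit higher in dcl1-5, FSD1 sits lower (237 against 612 RPM), and the FSD2 and FSD3 intervals overlap.

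On the 2-fold rule 4 of the 6 measured members were higher and 1 was lower, beside 33.8% and 4.58% of all tested genes (38.4% in either direction). CSD1, CSD2 and CCS were all among the 4, with log2 ratios of 1.76, 1.15 and 2.50, and CSD3 was the fourth at 1.07. CCS and CSD3 reached the mean of 5 RPM only through their dcl1-5 values, and FSD2 did not reach it. The lower member was FSD1, at a log2 ratio of -1.37. Net of the median of all tested genes, a choice made after seeing the data, 2 members were higher (CSD1 and CCS) and FSD1 lower, beside 14.6% and 14.4% of tested genes. An exact binomial test on the reads, which compares the libraries and not the genotypes, called 5 of the 6, all but FSD3, beside 73.9% of all tested genes.

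The general shift between the libraries depended on expression, so each member was also placed among the 500 tested genes nearest to it in mean RPM. CSD1 had a higher log2 ratio than 88.2% of all tested genes and than 95.6% of its neighbours in level, whose median was 0.10. CSD2 was above 71.4% of all genes and 88.2% of its neighbours, and CCS above 96.9% and 96.8%. CSD3 lay nearer the middle, above 68.5% of all genes and 58.4% of its neighbours, whose median was 0.78. FSD1 was above 2.31% of all genes and 3.60% of its neighbours, at a median of 0.09. FSD3 was above 32.4% and 24.8%. CSD1, CCS and FSD1 therefore lay near the edges of genes of like abundance, and CSD3 and FSD3 did not.

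**Figure D2:**
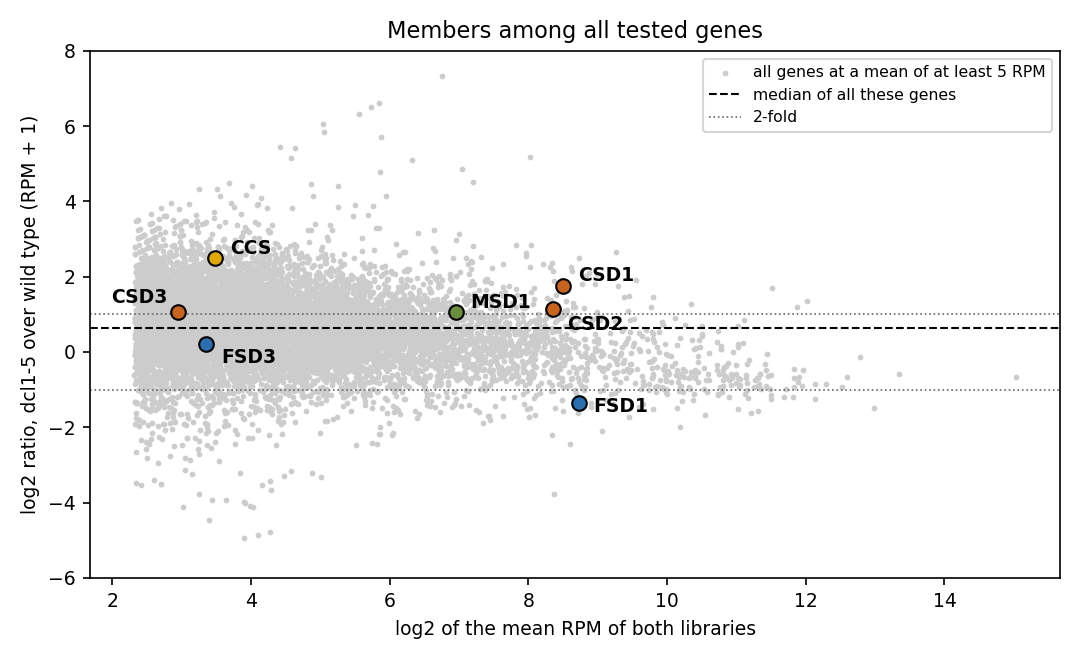
Log2 ratio of dcl1-5 over wild type (RPM + 1) against the log2 mean RPM for all 10240 tested genes (grey; 2 lie outside the plotted range) with the members and MSD1 marked. CSD1 (1.76) and FSD1 (-1.37) lie near opposite edges of the cloud at like abundance, while CSD3 (1.07) and FSD3 (0.21) lie inside it. The dashed line is the median of all tested genes (0.63).

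Scaling of the libraries decided some of these calls. CSD1 and CCS stayed at least 2-fold higher, at 1.29 and 2.09 with median-of-ratios scaling and 1.10 and 1.93 with TMM. CSD2 dropped under 2-fold with both, at 0.67 and 0.48, and so did CSD3, at 0.66 and 0.49. FSD1 was lower throughout, at -1.84 with median-of-ratios and -2.03 with TMM. The FSD3 ratio changed sign, to -0.23 and -0.40.

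**Figure D3:**
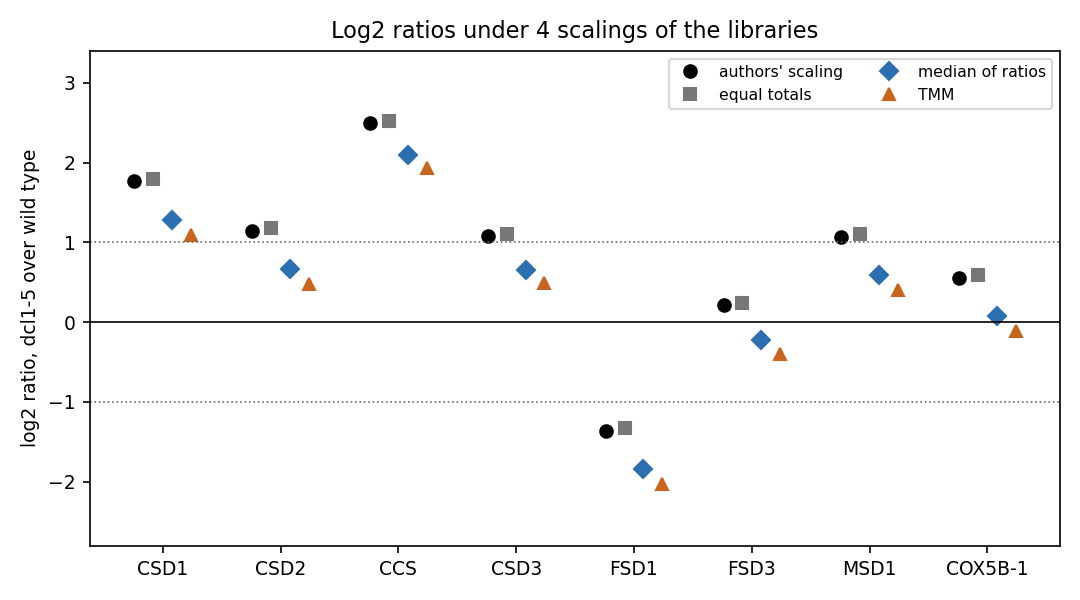
Log2 ratio of dcl1-5 over wild type for the 6 tested members, MSD1 and COX5B-1 under 4 scalings, with dotted lines at 2-fold. CSD1 and CCS stay above the upper line and FSD1 below the lower line in all 4. CSD2, CSD3 and MSD1 cross under the upper line with median-of-ratios and TMM. FSD3 stays between the lines and turns negative with both. COX5B-1 lies at 0.56 as deposited and 0.59 with equal totals, and near 0 with median-of-ratios (0.08) and TMM (-0.11).

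Ratios between genes within a library do not depend on that scaling, but a shift that depends on expression stays in them. The median log2 ratio of genes of like level was 0.10 for CSD1, 0.16 for CSD2 and 0.09 for FSD1. It was 0.81 for CCS, 0.78 for CSD3 and 0.82 for FSD3. Cu/Zn SOD reads (CSD1, CSD2 and CSD3) outnumbered Fe SOD reads (FSD1, FSD2 and FSD3) 4.11 to 1 in dcl1-5, with 4613 and 1122 reads, against 0.598 to 1 in wild type, with 2088 and 3489 reads. That ratio was 6.87-fold higher [6.31 to 7.49] in dcl1-5. Without FSD1 it was 2.25-fold higher, on the few reads of FSD2 and FSD3, and without CSD1 it was 5.56-fold higher. Per kb of transcript the ratios were 5.59 in dcl1-5 and 0.799 in wild type.

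MSD1 (AT3G10920), the mitochondrial manganese SOD, completes the family as listed in the table. It had 168 RPM in dcl1-5, against 79.7 RPM in wild type, 2.11-fold higher [1.87 to 2.38], although its log2 ratio was 0.59 and 0.40 with median-of-ratios and TMM scaling. Of all SOD reads, Cu/Zn enzymes took 71.0% [69.9 to 72.1] in dcl1-5, against 34.7% [33.5 to 35.9] in wild type (Clopper-Pearson intervals). Fe enzymes took 17.3% [16.4 to 18.2] in dcl1-5, against 57.9% [56.7 to 59.2] in wild type. FSD1 was the leading SOD gene by reads in wild type, at 57.0%, and CSD1 in dcl1-5, at 39.0%.

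The sum of all 7 SOD genes differed much less than its make-up. It was 1439 RPM in dcl1-5 and 1073 RPM in wild type, 1.34-fold higher [1.29 to 1.39], and its direction turned to 0.961-fold and 0.842-fold with median-of-ratios and TMM scaling. The Cu/Zn sum was 2.75-fold higher in dcl1-5, 1.97-fold and 1.73-fold with those scalings. The Fe sum was 249 RPM in dcl1-5, against 622 RPM in wild type.

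**Figure D4:**
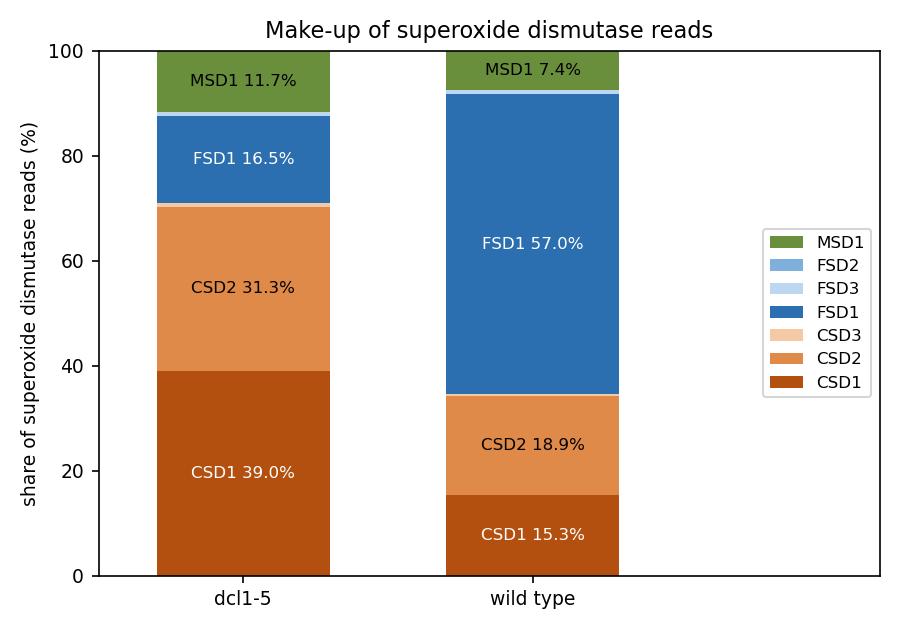
Share of all superoxide dismutase reads taken by each gene, as stacked percentages, for dcl1-5 (6493 reads) on the left and wild type (6024 reads) on the right. CSD1 and CSD2 hold 39.0% and 31.3% in dcl1-5, and FSD1 holds 57.0% in wild type.

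Ratios of this kind were computed for 15 pairs or groups of genes, and they separated CSD1 and CCS from CSD2. There were 1.24 CSD1 reads per CSD2 read in dcl1-5, against 0.810 in wild type, a 1.54-fold higher ratio [1.38 to 1.71]. CCS reads were 1.91% of the reads of CCS, CSD1 and CSD2 in dcl1-5, against 0.722% in wild type, a 2.68-fold higher ratio [1.54 to 5.00]. CSD2 per MSD1 was 2.68 in dcl1-5 and 2.55 in wild type, so that this ratio was 1.05-fold higher, with an interval of 0.915 to 1.21 that includes equality. CSD2 per CSD3 gave 0.947 [0.562 to 1.56]. Against MSD1, CSD1 was 1.62-fold higher [1.40 to 1.86], CSD3 1.11-fold [0.666 to 1.89] and FSD1 0.184-fold [0.160 to 0.211]. By counting error alone, the CSD2 difference was not separable from that of MSD1 or from that of CSD3, which had only 26 wild-type reads. These ratios do not allow for level. Among tested genes nearest in mean RPM, CSD2 was above 88.2%, MSD1 above 80% and CSD3 above 58.4%. The part of miR398 in these differences was not tested. The CSD1 difference was larger than that of MSD1. Whether it was larger than that of CSD3 is not shown, at 1.45 [0.862 to 2.40].

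The order of the genes was read per kb of transcript, with RefSeq lengths between 708 nt for CSD3 and 1308 nt for FSD2. An even spread of reads along the transcript was assumed and was not tested. In dcl1-5 the order was CSD1 (642 RPM per kb), CSD2 (428), FSD1 (185), MSD1 (155), CCS (15.7), CSD3 (15.3), FSD3 (8.76) and FSD2 (0.339), and the intervals of CCS with CSD3 and of CSD3 with FSD3 overlapped. In wild type FSD1 came first (478 RPM per kb), followed by CSD2 (193), CSD1 (188), MSD1 (73.6), FSD3 (7.47), CSD3 (6.54), CCS (2.13) and FSD2 with no read. There CSD2 could not be told from CSD1, nor FSD3 from CSD3. CCS was level with CSD3 in dcl1-5 and under it in wild type, with intervals apart.

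COX5B-1, the miR398 target with the closest pairing, differed less than CSD1. It had 165 RPM in dcl1-5 and 112 RPM in wild type, 1.47-fold higher [1.32 to 1.64], a log2 ratio of 0.56 that turned to -0.11 with TMM scaling. That was above 46.8% of all tested genes and 61.6% of the 500 nearest in level, whose median was 0.32. The CSD1 to COX5B-1 ratio was 2.31-fold higher [2.03 to 2.64] in dcl1-5, and the CSD2 to COX5B-1 ratio 1.50-fold higher [1.32 to 1.71]. The other targets of copper-related miRNAs, the laccases and plantacyanin, were near absent. Of 9 such targets 7 were in the table, COX5B-1 was the 1 that reached 5 RPM, and the most reads of any laccase were the 11 of LAC2 and of LAC4 in dcl1-5 and the 12 of LAC2 in wild type.

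Precursor reads of miR398 were almost not seen. Of the 7 loci for miR398, miR397, miR408 and miR857, 2 were in the table. MIR398C had 1 read in dcl1-5 and 0 in wild type. MIR408, the precursor of a miRNA that lowers plantacyanin and laccases, had 41 reads in dcl1-5 and 1 in wild type, a ratio of 51.0 with a wide interval of 8.65 to 2062, and it stayed under a mean of 5 RPM. AT5G14550, whose annotated transcript runs antisense across MIR398B, had 6 reads in dcl1-5 and 1 in wild type, with an interval that includes equality. It was chosen after its values were seen.

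SPL7 binds promoters at GTAC, a motif that reads the same on both strands. It was counted in the 300 bases from 250 before to 50 after each annotated gene start, where 39.0% of 27444 protein-coding genes hold at least 1 copy. FSD1, CCS and CSD3 had 1 copy each and CSD1 had 2, as many as 9.76% of genes hold at least. CSD2, FSD2, FSD3 and MIR398A had none in this window. MIR398B had 5, a number that 0.0838% of protein-coding genes reach, MIR408 had 4 (0.397%) and MIR398C had 3 (1.99%). For the miRNA loci the annotated start is that of the hairpin, so their window may miss the promoter.

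Genes of copper uptake and delivery, listed with SPL7 and the plastocyanins PETE1 and PETE2, tended to be higher in dcl1-5, as genes did in general. Both plastocyanins passed the 2-fold rule as higher. Of 25 listed genes 22 were in the table and 14 reached 5 RPM, of which 9 (64.3%) were at least 2-fold higher and 0 lower, beside 33.8% and 4.58% of all tested genes, with a median log2 ratio of 1.24 beside 0.63. Net of that median 4 were higher and 0 lower, beside 14.6% and 14.4% of all tested genes. COX11, which delivers copper to cytochrome c oxidase in mitochondria, had 10.6 RPM in dcl1-5, against 1.25 RPM in wild type, 8.53-fold higher [3.84 to 22.3]. Plastocyanin PETE2, the main copper protein of the plastid, had 564 RPM in dcl1-5, against 150 RPM in wild type, 3.76-fold higher [3.48 to 4.07]. The cytosolic copper chaperone CCH was 3.62-fold higher [2.56 to 5.20] and the plastid envelope pump HMA1 3.56-fold [2.31 to 5.63]. COX11 and 2 others of the 14 reached 5 RPM only through dcl1-5.

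Other copper genes were mixed, and the following were chosen after their values were seen. SPL7 itself had 22.6 RPM in dcl1-5 and 12.3 RPM in wild type, 1.84-fold higher [1.34 to 2.53], under the 2-fold rule. The copper transporters COPT2 and COPT5 were 3.20-fold [2.20 to 4.74] and 2.67-fold [2.33 to 3.06] higher. Of the pumps that bring copper into the plastid and its thylakoids, PAA1 had 27.0 RPM in dcl1-5 and 28.7 RPM in wild type, whereas PAA2 had 1 read in dcl1-5 and 41 in wild type. That PAA2 difference was 33.0-fold lower [5.60 to 1334], under the mean of 5 RPM.

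Enzymes that remove the hydrogen peroxide made by SODs were listed as well. Of 34 genes 33 were in the table and 28 reached 5 RPM, of which 11 (39.3%) passed the 2-fold rule as higher and 0 as lower, near the 33.8% and 4.58% of all tested genes. Their median log2 ratio was 0.85 beside 0.63 for all tested genes. Net of that median 5 were higher and 0 lower, beside 14.6% and 14.4% of all tested genes. All 3 catalases were among the higher ones, and CAT1 had 151 RPM in dcl1-5, against 40.6 RPM in wild type, 3.71-fold higher [3.19 to 4.33]. Net of the median of all genes, CAT2 and CAT3 were under 2-fold, at log2 ratios of 0.75 and 0.66. The ascorbate peroxidase APX6, with 61 reads in dcl1-5 and 10 in wild type, was 7.58-fold higher [3.86 to 16.6], the peroxidase GPX2 4.36-fold [3.56 to 5.36] and the dehydroascorbate reductase DHAR3 4.35-fold [2.88 to 6.77]. APX6 and TAPX reached 5 RPM only through dcl1-5. The main cytosolic ascorbate peroxidase APX1, far above these in level, had 2375 RPM in dcl1-5 and 1999 RPM in wild type, and was singled out after its value was known.

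**Figure D5:**
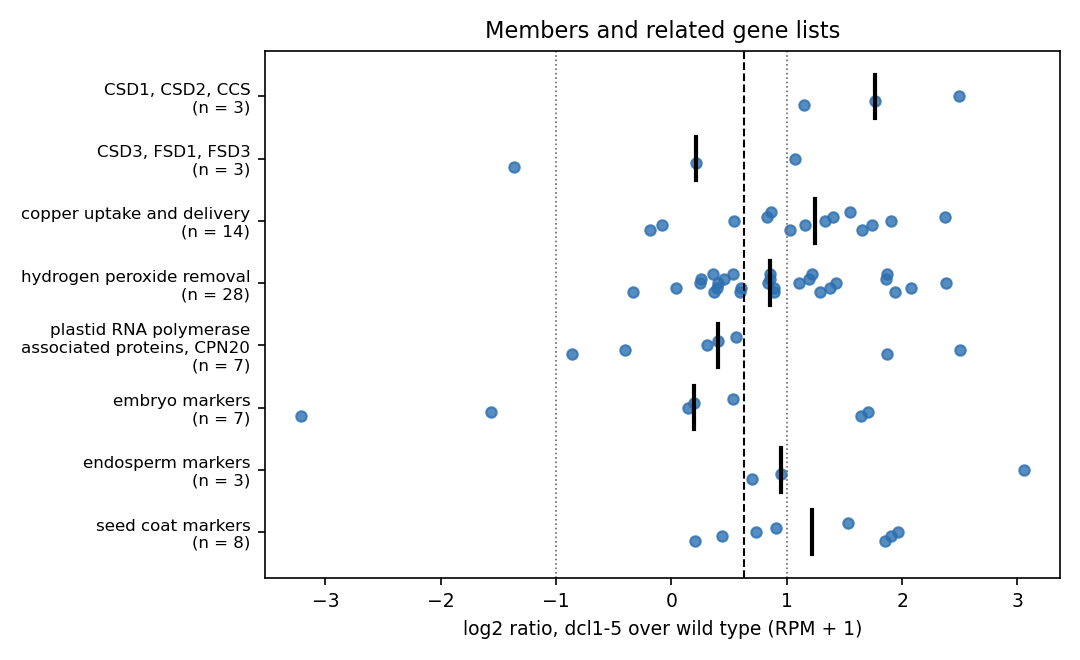
Log2 ratio of dcl1-5 over wild type (RPM + 1) for each gene at a mean of at least 5 RPM in the member groups and related lists, with black bars at list medians, dotted lines at 2-fold and a dashed line at the median of all tested genes (0.63). FSD1 (-1.37) lies below every plotted copper and hydrogen peroxide gene, and the embryo markers DRN (-3.21) and SCR (-1.56) lie below FSD1. The copper gene PAA2 (-2.77) was under the mean of 5 RPM and is not plotted. The median of the seed coat markers (1.22) lies right of the dashed line.

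Markers of the embryo and of other seed tissues were counted in the same libraries. Seed coat markers, maternal genes around the embryo, were all 12 in the table, and 4 of the 8 at 5 RPM were at least 2-fold higher, BAN, GL2, TT1 and DFR, with 0 lower, beside 33.8% and 4.58% of all tested genes. GL2 and TT1, and 2 of the 4 not called, reached 5 RPM only through dcl1-5. The reads of all 12 seed coat markers summed to 412 RPM in dcl1-5 and 214 RPM in wild type. BAN alone had 125 RPM in dcl1-5 and 32.6 RPM in wild type. LDOX had 151 RPM and 131 RPM, and AHA10 went the other way, with 1 read in dcl1-5 and 5 in wild type. Endosperm markers summed to 59.4 RPM in dcl1-5 and 30.1 RPM in wild type, with 7 of 9 in the table. Of the 3 tested 1 was higher (33.3%, beside 33.8% of all tested genes), FIS2, which reached 5 RPM only through dcl1-5. FIS2 and FWA made up most of the difference between those sums. In contrast, AGL62 had 1 read in dcl1-5 and 9 in wild type, MEA 6 and 15, and ZOU 1 and 3. Embryo markers summed to 646 RPM in dcl1-5 and 531 RPM in wild type, and all 8 were detected in both. Of the 7 tested, WOX8 and WOX9 were higher by the 2-fold rule and DRN and SCR lower (28.6% each way, beside 33.8% and 4.58% of all tested genes). WOX8 reached 5 RPM only through dcl1-5 and DRN only through wild type. LEC1, a defining embryo gene, had 287 RPM in dcl1-5 and 250.7 RPM in wild type. None of the listed embryo, endosperm or seed coat markers in the table was at 0 in either library. The part of these tissues in the SOD differences was not tested.

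Neighbouring loci touched 2 members. CSD1 overlaps AT1G08840 on the opposite strand, which had 2 reads in dcl1-5 and 1 in wild type. CSD3 overlaps AT5G18110 on the opposite strand, which had 239 reads in dcl1-5 and 188 in wild type, far more than CSD3 itself, and also the noncoding locus AT5G02875. Reads were counted by strand, per the series' design text, so these were kept apart from the members as far as the library preparation kept strand. CSD2, CCS, FSD1, FSD2 and FSD3 overlap no other annotated gene.

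The genes with the most similar pair of levels were found by distance over the log2(RPM + 1) values of the 2 libraries. For CSD1 it was AT5G01870, at a distance of 0.064, for CSD2 ADF4 (0.020), for CCS KT5 (0.031), for FSD3 CLT1 (0.026) and for FSD1 PDCB1 (0.20). FSD1 was thus the member with the least close neighbour, since PDCB1 had 265 RPM in dcl1-5 and 563 RPM in wild type. CSD3 shared its values exactly with 3 genes and FSD2 with 269. With 2 libraries, such likeness rests on 2 numbers per gene.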

How the data were processed

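Both libraries were grouped by the strain in their labels. Alignment by the authors was to TAIR9 with Bowtie (version not given in the sources used here), per the series' design text. It allowed 2 seed mismatches at most (seed of 25 nt) and kept reads with 1 genomic match. A gene's reads are those overlapping its antisense strand, the orientation that the amplification kit produces. The deposited values are RPM, per the labels and the file headers. A deposited ratio column was not used. All RPM values were whole multiples of 1 read (within 0.01, 100% of values), so read counts were recovered from the deposited RPM. Of the genome-matching reads, 88.0% in dcl1-5 and 90.2% in wild type lay in listed genes.

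Log2 ratios used a pseudocount of 1 RPM, a mean of at least 5 RPM and a 2-fold rule. Intervals were exact Poisson for levels, Clopper-Pearson for shares and conditional for ratios. An exact binomial test on the reads with Benjamini-Hochberg adjustment at 0.05, which compares the 2 libraries and not the genotypes, called 7567 of 10240 genes. Transcripts, overlaps and miR398 sites came from RefSeq TAIR10.1, another build than TAIR9, so coordinates are those of TAIR10.1. The site search and ratios were tested on simulated data. TMM used edgeR 4.0.16 in R 4.3.3 on recovered reads, and the rest ran in Python 3.11.15 (scipy 1.17.1, statsmodels 0.14.6, pandas 2.3.3, numpy 2.4.6, numba 0.67.0).

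Alternatives were other pseudocounts, filters, scalings and fold thresholds, the binomial test, and read ratios without CSD1, without FSD1 or per kb. The members and lists were chosen with earlier results of these data known. Named genes were the members, MSD1, the copper miRNA loci, DCL1, the 4 tested genes of each list farthest from a log2 ratio of 0, and each member's nearest gene.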

Additional observations from a re-analysis of the deposited data

How the results depend on the processing

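Pseudocounts of 0.1 and 5 RPM and equal totals over listed genes kept the counts of higher and lower genes and members within 1.5 times. With a pseudocount of 5 RPM 3 members were higher, without CSD3, and the CCS log2 ratio was 1.69 instead of 2.50. With no filter 5706 genes were higher and 1154 lower, and 1 gene of the pathway lists, PAA2, was lower, against 0 before. With a filter of 20 RPM the counts were 1243 and 220, with 2 members and 11 of the list genes higher, since fewer genes are tested. With median-of-ratios scaling they were 1984 and 1091, with 2 members higher, 12 list genes higher and 1 lower. With TMM they were 1541 and 1486, with 2 members higher, 11 list genes higher and 2 lower. Net of the median of all genes, a choice made after seeing the data, they were 1499 and 1471, with 2 members higher, 11 list genes higher and 2 lower. The median log2 ratio of CSD1, CSD2 and CCS was 1.76, and 1.29, 1.10 and 1.14 in those 3 settings. The median of the other 4 members was 0.37, and -0.26 net of the median of all genes. It rests partly on FSD2, which had too few reads to be tested, and over the 3 tested members it was 0.21. For the 4 members it was 0.72 and 0.14 with pseudocounts of 0.1 and 5 RPM. With median-of-ratios and TMM scaling it was 0.12 and 0.02. At 4-fold 801 genes were higher and 83 lower, with 1 member (CCS) and 4 list genes higher and 0 members lower. The exact binomial test called 6101 higher and 1466 lower genes.

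The Cu/Zn to Fe read ratio of 4.11 in dcl1-5 and 0.598 in wild type was 1.86 and 0.334 without CSD1, 88.7 and 39.4 without FSD1, and 5.59 and 0.799 per kb. The first of these gave a 5.56-fold and the second a 2.25-fold difference, against 6.87-fold. FSD1 was the 1 lower member in every setting but the 4-fold threshold. No paired analysis was possible because there is 1 library per genotype. FSD2 and MIR398C had too few reads for a difference to be detected at this depth. Of the 7 copper miRNA loci only 2, MIR398C and MIR408, were in the table. Why the rest were absent was not tested.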

Other observations

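FSD2 and FSD3 are also subunits associated with the plastid-encoded RNA polymerase, and their partners in that complex were uneven. With the chaperonin CPN20, which helps FSD1 to become active, 7 of 11 listed genes reached 5 RPM, of which 2 (28.6%) were at least 2-fold higher in dcl1-5 and 0 lower, near the 33.8% and 4.58% of all tested genes, with a median log2 ratio of 0.40 beside 0.63. Net of the median of all genes 2 were higher and 2 lower, beside 14.6% and 14.4%. FLN1 had 11.7 RPM in dcl1-5, against 1.25 RPM in wild type, 9.41-fold higher [4.26 to 24.5], and reached 5 RPM only through dcl1-5. PTAC3 was 3.98-fold higher [2.82 to 5.72]. PTAC12 had 8.20 RPM in dcl1-5, against 15.7 RPM in wild type, at a log2 ratio of -0.86, and PTAC7 had 16.0 RPM and 10.5 RPM. CPN20, chosen after its value was seen, had 164 RPM in dcl1-5 and 124 RPM in wild type.

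NADPH oxidases, the RBOH enzymes that make superoxide at the plasma membrane, were barely read. Of 10 genes 7 were in the table and 0 reached 5 RPM, with sums of 22 reads in dcl1-5 and 14 in wild type over the family. RBOHD had 10 reads in dcl1-5 and 2 in wild type, a ratio of 6.22 [1.32 to 58.4], and was named after its value was seen. RBOHB (5 and 1 reads) and RBOHF (5 and 0) went the same way. RBOHE (2 and 6), RBOHA (0 and 3), RBOHG (0 and 1) and RBOHJ (0 and 1) went the other way.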
